A study of Homo sapiens with 38 samples.

Results

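The comparison described here is that of a drug-resistant melanoma clone with its parental line when neither had drug present. It used 5 of the 38 arrays of the study, namely all arrays of cells given only the solvent DMSO for 24 h. Parental cells were A375, a human melanoma line, with 3 arrays. Resistant cells were A375 16R6-4, a clone derived from A375 that had acquired resistance to GSK2118436 (GSK436, dabrafenib), with 2 arrays. Both were grown in RPMI1640 medium with 10% foetal bovine serum and received no inhibitor in these 24 h. The resistant group is 1 clone, so what is particular to resistance and what is particular to that clone cannot be told apart. Whether same-group arrays stem from different cultures is not stated in the labels. The p-values therefore reflect sample-to-sample spread that may be technical, and the number of arrays limits the precision. The other 33 arrays, 18 resistant and 15 parental, were of cells given GSK436 at 0.1 or 1 µM, GSK1120212 (GSK212, trametinib) at 10 or 30 nM, or 10 nM GSK212 with either GSK436 dose. The difference of DMSO means uses none of their values, but the choice of probe sets and the error variance behind each p come from all 38 arrays. With the 5 DMSO arrays alone 465 genes were called.

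Melanoma cells arise from melanocytes, which come from the neural crest, and their identity rests on transcription factors such as SOX10, MITF and PAX3. Growth of most such tumours is driven by signalling through the RAS, RAF, MEK and ERK proteins. GSK436 inhibits mutant RAF kinase and GSK212 inhibits MEK, and cells selected in such drugs are known to differ from their parents in lineage factors, receptor tyrosine kinases and their ligands, matrix and antigen presentation. These gene groups order the results below.

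The values are signals of 1 array each, in arbitrary units, with a median over all 38 arrays of 34.88. On the 5 DMSO arrays the median signal was 21.6 to 31.3. The 2 resistant arrays correlated with r of 0.9565 over probe sets, and pairs of parental arrays with r of 0.935 to 0.953. The ratio of 3' to 5' actin control signals, a sign of RNA quality, was 6.65, 4.59 and 12.045 in parental and 6.98 and 3.95 in resistant cells, so parental replicate 3 had the highest ratio of the 5. The effect of that array is given by the values without it. No detection calls were used, so a low signal has no stated detection limit. Differences are log2 of signal plus 2.8 in resistant minus parental cells, with the standard error of the fit (2 against 3 arrays). That scale understates the change of genes with low signals. Each gene stands on 1 probe set, levels are compared only between arrays and not between genes, and in bulk RNA fewer cells with a transcript and less of it per cell cannot be told apart.

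With limma, 657 of 18063 genes were called (3.64%), at a Benjamini-Hochberg adjusted p under 0.05 and an absolute log2 difference of at least 1. Of these, 266 were higher in resistant cells (1.47% of genes tested) and 391 were lower (2.16%). The lower side also held more of the large differences, with 63 genes lower by at least 3 on the log2 scale against 38 higher, and 27 against 10 at a size of at least 4. For 142 of the genes called lower, both resistant arrays were under the median of 34.88. For 61 of the genes called higher, all 3 parental arrays were. These counts rest on 2 and on 3 arrays, so they cannot be set against each other. The median signal of every DMSO array was below 34.88 (21.6 to 31.3), and the share of all genes under it was not counted. The 2 resistant and 3 parental arrays did not overlap for 656 of the 657 called genes, and for 5931 of all genes (32.8%). Without resistant replicate 2 the count of called genes was 398, of which 217 were lower. The balance of higher and lower depends on scaling. The median difference of all genes was -0.10 as deposited, -0.01 after quantile normalization and 0.17 with each array centred on its median, and the share of called genes that were higher was 40.5% as deposited and 59.1% after centring (338 higher and 234 lower). Centring thus raises every difference by about the same amount, and list medians slightly below 0 change sign with it, as given beside each.

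**Figure D1:**
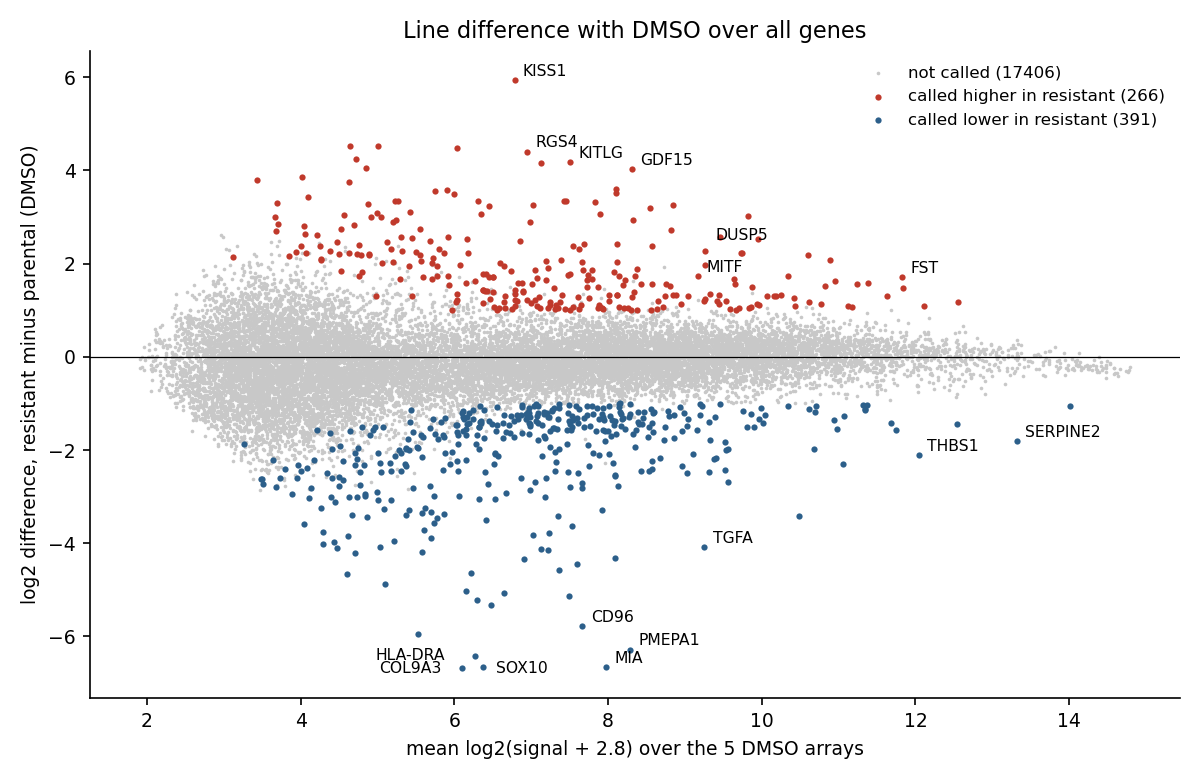
Log2 difference of resistant minus parental cells with DMSO (vertical axis) against the mean log2 of signal plus 2.8 over the 5 arrays (horizontal axis), with 1 point per gene. The 391 genes called lower (blue) reach down to -6.69 and the 266 called higher (red) up to 5.93, and 17406 genes were not called (grey).

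The genes highest in the clone relative to the parental line included secreted and signalling proteins. KISS1, which encodes the precursor of the kisspeptin peptides and was named a metastasis suppressor in melanoma, had signals of 1436.5 and 1172 on the resistant arrays and 5.27, 33.95 and 29.6 on the parental arrays. Its log2 difference was 5.93 ± 0.50 (adjusted p = 1.27e-10 in limma), the highest of all genes, and the groups were far apart. RGS4, a regulator that shortens G protein signalling, read 703 and 831 in resistant and 38.15, 22.4 and 43.4 in parental cells, a difference of 4.40 ± 0.65 (adjusted p = 9.94e-06). VSTM1, an immunoglobulin-like receptor, read 383 and 465 against 19.7, 9.20 and 22.4 (4.48 ± 0.54). All 3 thus went from parental signals around or below the median to resistant signals far above it. GDF15, a secreted stress-responsive member of the TGF-beta family, read 1682 and 1688 against 111, 97.85 and 95.7, a difference of 4.02 ± 0.55 (adjusted p = 2.75e-06). STXBP6, a binding partner of syntaxin, differed by 4.53, the zinc finger gene ZNF114 by 4.51, and the long non-coding RNA LINC00520 by 4.16. Monoamine oxidase A (MAOA) differed by 3.55 and syntabulin (SYBU), which links vesicles to kinesin, by 3.48. ZNF542P, a zinc finger pseudogene on chromosome 19, read 1082 and 1386 against 105, 105 and 84.7, with a difference of 3.61 ± 0.30.

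**Figure D2:**
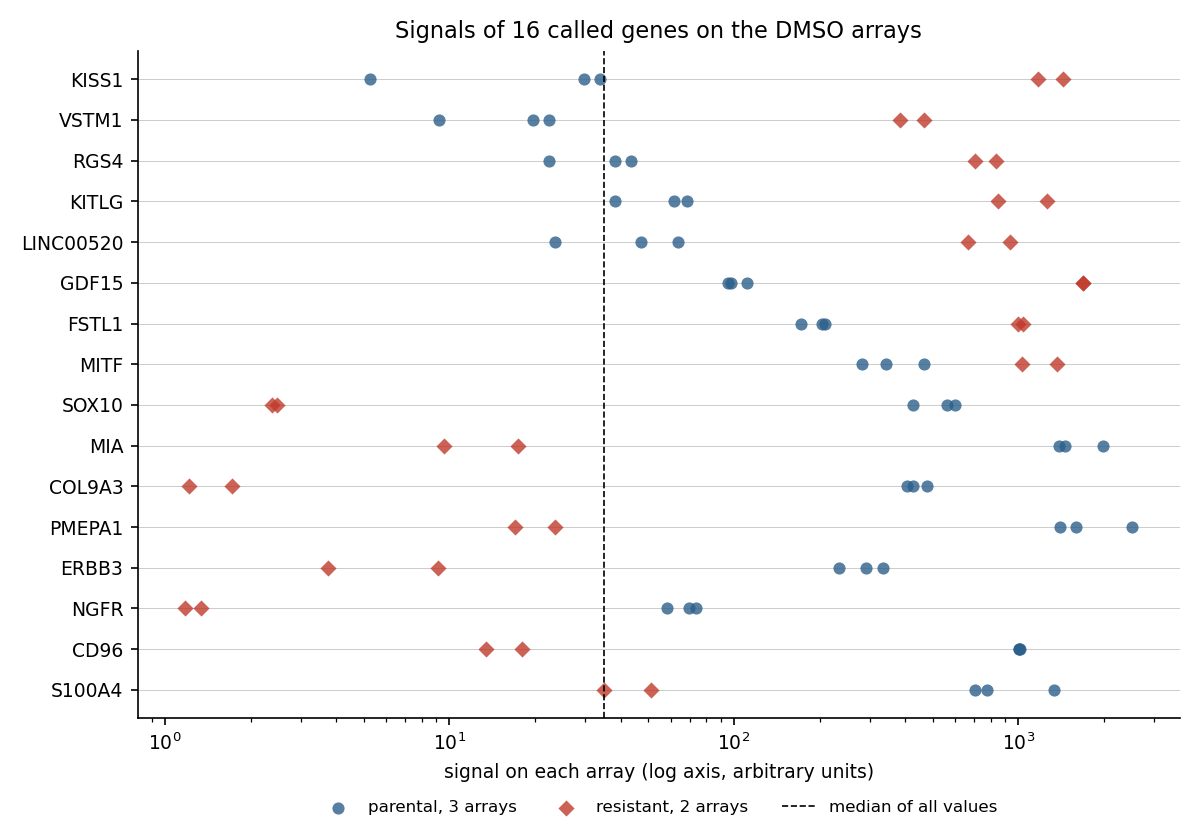
Signal on each DMSO array (horizontal log axis, arbitrary units) of 16 called genes, with circles for the 3 parental arrays and diamonds for the 2 resistant arrays. The groups do not overlap for any of the 16 genes, and the dashed line marks the median of all values, 34.88.

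The genes lowest in the clone included the main lineage factor of melanocytes. SOX10, which keeps neural crest and melanocyte identity, read 2.47 and 2.38 on the resistant arrays and 560.1, 427 and 601 on the parental arrays. Its difference was -6.65 ± 0.58 (adjusted p = 2.41e-10 in limma), and a second kept probe set gave -2.07. Both resistant signals were thus below 2.8, the value added before taking logs, while every parental signal was far above the median of 34.88. MIA, a protein secreted by melanoma cells, read 17.4 and 9.61 against 1459, 1393 and 1983 (-6.65 ± 0.52). ERBB3, a receptor for neuregulin, read 9.12 and 3.74 against 291, 235 and 334 (-5.02 ± 0.54). NGFR, the low-affinity neurotrophin receptor that marks neural crest cells, read 1.18 and 1.34 against 69.5, 58.1 and 73.4 (-4.10 ± 0.57). L1CAM, a neural adhesion molecule, differed by -4.34 and S100A4, a calcium-binding protein tied to cell motility, by -4.32. Of 23 measured secreted and surface proteins of melanoma 6 were called lower and 3 higher, against 2.16% and 1.47% of all genes. The list median was -0.83 (-0.56 with centring, where 4 were called in each direction).

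Not all lineage factors were lower. Of 25 measured melanocyte and neural crest factors 4 were called lower and 2 higher, against 2.16% and 1.47% of all genes. SOX10, SOX5, TFAP2C and DLX2 were called lower, and MITF and SNAI2 higher. The list median was 0.00 (0.27 with centring) against -0.10 for all genes. MITF, the master regulator of pigment cell genes, read 1029 and 1362 in resistant and 343, 465 and 283 in parental cells, a difference of 1.73 ± 0.22 (adjusted p = 1.07e-06), and both of its kept probe sets were higher. So MITF was higher in the line in which SOX10 was near background. SOX5, a SOX factor without an activation domain, read 66.0 and 56.6 against 396, 376 and 293 (-2.47 ± 0.22), and the AP-2 factor TFAP2C read 309.9 and 374 against 1302, 1357 and 1036 (-1.84 ± 0.25). PAX3 (-0.62 ± 0.31, adjusted p = 0.351), SOX9 (0.57 ± 0.27, adjusted p = 0.294), TFAP2A (0.11), LEF1 (0.12, with another probe set at -1.69) and ID3 (-0.00) were not called. ID1, a target of BMP signals, read 1582 and 1701 against 3726, 3622 and 3449.6 and missed the threshold (-1.13 ± 0.35, adjusted p = 0.0537). ID1 was called lower after quantile normalization, with a filter at the 75th percentile and with the 5 DMSO arrays alone. Array weights and the actin ratio as a covariate also gave this call (adjusted p = 1.996e-06 to 0.0395 over these settings). DLX2 (adjusted p = 0.0911) lost its call without resistant replicate 1. SNAI2 lost its call on leaving out resistant replicate 1, resistant replicate 2 and parental replicate 1 in turn (adjusted p = 0.0913 to 0.228). TFAP2C (log2 -1.53, adjusted p = 0.05885) was not called with the mean of all probe sets. SNAI2 (log2 1.30, adjusted p = 0.280) was not called with the 5 DMSO arrays alone. DLX2 was not called with centring, with the mean of all probe sets or with the 5 DMSO arrays alone (adjusted p = 0.0789 to 0.483).

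Of 25 measured pigment and melanosome genes 1 was called, near the 3.64% of all genes. This was the melanosome transport gene RAB27A, which was lower (-1.30 ± 0.32, adjusted p = 0.00921), and the median was -0.30, which centring turns to -0.04. The melanosome antigens MLANA (0.590 and 5.44 against 19.75, 33.2 and 33.1, -2.54 ± 0.86, adjusted p = 0.0860) and PMEL (13.8 and 2.20 against 3.86, 26.2 and 21.5) were under the median of 34.88 on all 5 arrays. The pigment enzymes TYR and TYRP1 were too, except TYR on parental replicate 3 at 50.17. Over the 9 measured melanocyte lineage markers the summed signal was 1188 to 1497 in resistant and 2575 to 3118 in parental cells. Of the 9 markers 4 or 5 were under the median of 34.88 on each parental array and 7 on each resistant array. In parental cells the A375 label was thus borne out by SOX10, MITF, PAX3 and MIA but not by MLANA, PMEL, TYR or TYRP1, while the transport genes RAB27A (109 and 64.6 against 224, 195 and 215) and RAB38 (196 and 212 against 241, 257 and 269) were above the median in both lines. RAB27A (adjusted p = 0.366) lost its call without resistant replicate 2. RAB27A was not called after quantile normalization, with centring, with the mean of all probe sets or with the 5 DMSO arrays alone (adjusted p = 0.0526 to 0.120).

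Several genes of MHC class II, whose proteins present peptides to CD4 T cells, were among the lowest in the clone. Of 21 measured genes of the class II pathway 7 were called lower and 0 higher, with a median of -0.52 against -0.10 for all genes and a background of 2.16% called lower. With centring 6 were called lower and the median was -0.25. HLA-DRA, the shared alpha chain of the DR molecules, read 5.31 and 0.770 in resistant and 463, 566 and 358 in parental cells, a difference of -6.41 ± 0.75 (adjusted p = 1.86e-07). CD74, the invariant chain that escorts class II molecules, read 26.55 and 29.0 against 570.2, 622 and 808 (-4.44 ± 0.30, adjusted p = 1.19e-12). The alpha chain HLA-DPA1 read 293 and 242 against 1405, 1637 and 1299 (-2.42 ± 0.19), so it was lower but well above the median in both lines. HLA-DMA and HLA-DMB, the chains of the DM molecule that loads peptides, differed by -1.70 ± 0.29 and -1.46 ± 0.42. HLA-DRB1 (-3.42 ± 0.54) and HLA-DRB4 (-5.96 ± 0.53) are near-identical beta chain genes whose probe sets may each read the other gene's RNA, and of 3 kept HLA-DRB4 probe sets 1 gave 0.34. The other class II chains were not called, among them HLA-DPB1 (-0.70 ± 0.26, adjusted p = 0.134) and HLA-DQB1 (-0.66 ± 0.56, adjusted p = 0.686). However, the other kept probe sets of HLA-DQB1 gave -2.26, -1.27 and -1.92. Kept probe sets of HLA-DQA1 gave 0.32 and -1.40, and those of HLA-DOA ran from -1.31 to 0.80. CIITA, the coactivator on which class II transcription depends, read 33.4 and 17.97 against 10.85, 16.35 and 42.2 and was not called (0.27 ± 0.97, adjusted p = 0.952), but its probe sets disagreed, since the other 2 kept gave -1.76 and 0.42. RFX5 (-0.10), RFXANK (-0.44), RFXAP (0.11), NFYA (-0.27), NFYB (0.24) and NFYC (0.06), whose proteins bind class II promoters, were not called either. HLA-DMB lost its call on leaving out any 1 of the 5 arrays (adjusted p = 0.0501 to 0.284). HLA-DRB4 (log2 -2.14, adjusted p = 0.05025) was not called with the mean of all probe sets. HLA-DMB was not called after quantile normalization, with centring or with the 5 DMSO arrays alone (adjusted p = 0.0575 to 0.195).

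The promoters of 4 of the genes called lower are shown because class II genes are known to share an X box and a Y box, and these 4 hold both words searched. Windows were at hand for 5 of the 7 genes called lower, the fifth being HLA-DPA1, and HLA-DRA and HLA-DRB4 were not analysed here. The windows run from 250 bases before to 50 bases after the start of transcription in RefSeq (GRCh38.p14). Capitals mark ACNGATG, the end of many X boxes, and ATTGG, the Y box or inverted CCAAT word, on either strand, and no matches overlap.
HLA-DRB1 (chr6:32589799-32590098, minus strand): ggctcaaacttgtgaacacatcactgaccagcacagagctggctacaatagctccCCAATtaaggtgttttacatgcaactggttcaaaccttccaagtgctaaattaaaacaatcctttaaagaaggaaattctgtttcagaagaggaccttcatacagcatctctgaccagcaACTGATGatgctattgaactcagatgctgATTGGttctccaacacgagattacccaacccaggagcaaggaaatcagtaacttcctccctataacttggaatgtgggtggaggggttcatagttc
HLA-DMA (chr6:32953048-32953347, minus strand): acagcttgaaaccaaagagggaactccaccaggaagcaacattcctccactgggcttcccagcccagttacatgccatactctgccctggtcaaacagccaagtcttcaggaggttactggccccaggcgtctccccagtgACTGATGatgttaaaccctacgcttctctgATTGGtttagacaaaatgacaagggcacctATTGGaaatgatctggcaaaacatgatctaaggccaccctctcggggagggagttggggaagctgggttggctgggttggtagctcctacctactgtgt
HLA-DMB (chr6:32940979-32941278, minus strand): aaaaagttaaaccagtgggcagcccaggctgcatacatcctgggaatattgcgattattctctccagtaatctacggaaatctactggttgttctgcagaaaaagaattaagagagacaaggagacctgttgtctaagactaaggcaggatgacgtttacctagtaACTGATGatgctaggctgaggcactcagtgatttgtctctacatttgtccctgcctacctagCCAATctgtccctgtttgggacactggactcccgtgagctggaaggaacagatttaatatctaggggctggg
CD74 (chr5:150412861-150413160, minus strand): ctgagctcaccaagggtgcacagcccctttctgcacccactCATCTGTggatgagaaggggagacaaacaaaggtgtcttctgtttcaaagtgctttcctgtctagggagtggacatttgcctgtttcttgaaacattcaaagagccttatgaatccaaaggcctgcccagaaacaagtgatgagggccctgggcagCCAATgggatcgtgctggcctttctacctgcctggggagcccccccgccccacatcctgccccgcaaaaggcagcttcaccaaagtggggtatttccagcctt
In the first 3 the X word lies before a Y word on the same side of the start, while in CD74 its match is on the opposite strand. Of 35116 promoter windows of this length 7.65% hold ACNGATG, 34.61% hold ATTGG and 2.78% hold both. Among the pathway genes not called, HLA-DQB1 and 1 of the NFYC windows also hold both words. The windows of HLA-DPA1, which was called lower, hold neither, which says only that these letters are not in them.

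Of 19 measured class I genes 1 was called lower (5.26%, against 2.16% of all genes), HLA-C, which read 458 and 459 against 907, 981 and 904 (-1.01 ± 0.14). HLA-B (-0.64 ± 0.17, adjusted p = 0.0177) and the peptide transporter TAP1 (-0.78 ± 0.22, adjusted p = 0.0289) passed the adjusted p but not the size of 1, and B2M, the shared light chain, did neither (-0.27 ± 0.25, adjusted p = 0.722). Of 28 interferon-response genes 4 were called lower (OAS1, GBP1, ISG20 and IFI35) and 1 higher (IFI16), or 14.3% and 3.57% against 2.16% and 1.47% of all genes, with a median of -0.03. GBP1, a guanylate-binding protein, read 47.3 and 28.55 against 108, 105 and 102, and IFI35 read 92.0 and 69.1 against 149.99, 173 and 251.5. Centring left 1 of these genes called lower and 0 class I genes, and turned the interferon median to 0.24. HLA-C probe sets may also read other class I genes. GBP1 (adjusted p = 0.321), IFI16 (adjusted p = 0.0775) and ISG20 (adjusted p = 0.112) lost their calls without resistant replicate 2. HLA-C (log2 -0.98) lost its call without parental replicate 2. IFI16 (log2 0.91) and IFI35 (log2 -0.99) lost their calls without parental replicate 3. OAS1 lost its call on leaving out each array except parental replicate 1 in turn (adjusted p = 0.05115 to 0.278). ISG20 (log2 -1.34, adjusted p = 0.0554) was not called with the 5 DMSO arrays alone. GBP1 was not called after quantile normalization, with centring or with the 5 DMSO arrays alone (adjusted p = 0.0670 to 0.1805). HLA-C was not called after quantile normalization, with centring or with the mean of all probe sets (log2 -0.75 to -0.99, adjusted p = 7.23e-06 to 0.114). IFI16 was not called after quantile normalization, with centring, with the mean of all probe sets, with array weights or with the actin ratio as a covariate (log2 0.93 to 1.28, adjusted p = 1.01e-05 to 0.0556). IFI35 was not called after quantile normalization, with centring or with the 5 DMSO arrays alone (log2 -0.93 to -1.20, adjusted p = 0.00335 to 0.0890). OAS1 was not called after quantile normalization, with centring, with the mean of all probe sets or with the 5 DMSO arrays alone (adjusted p = 0.116 to 0.549).

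**Figure D3:**
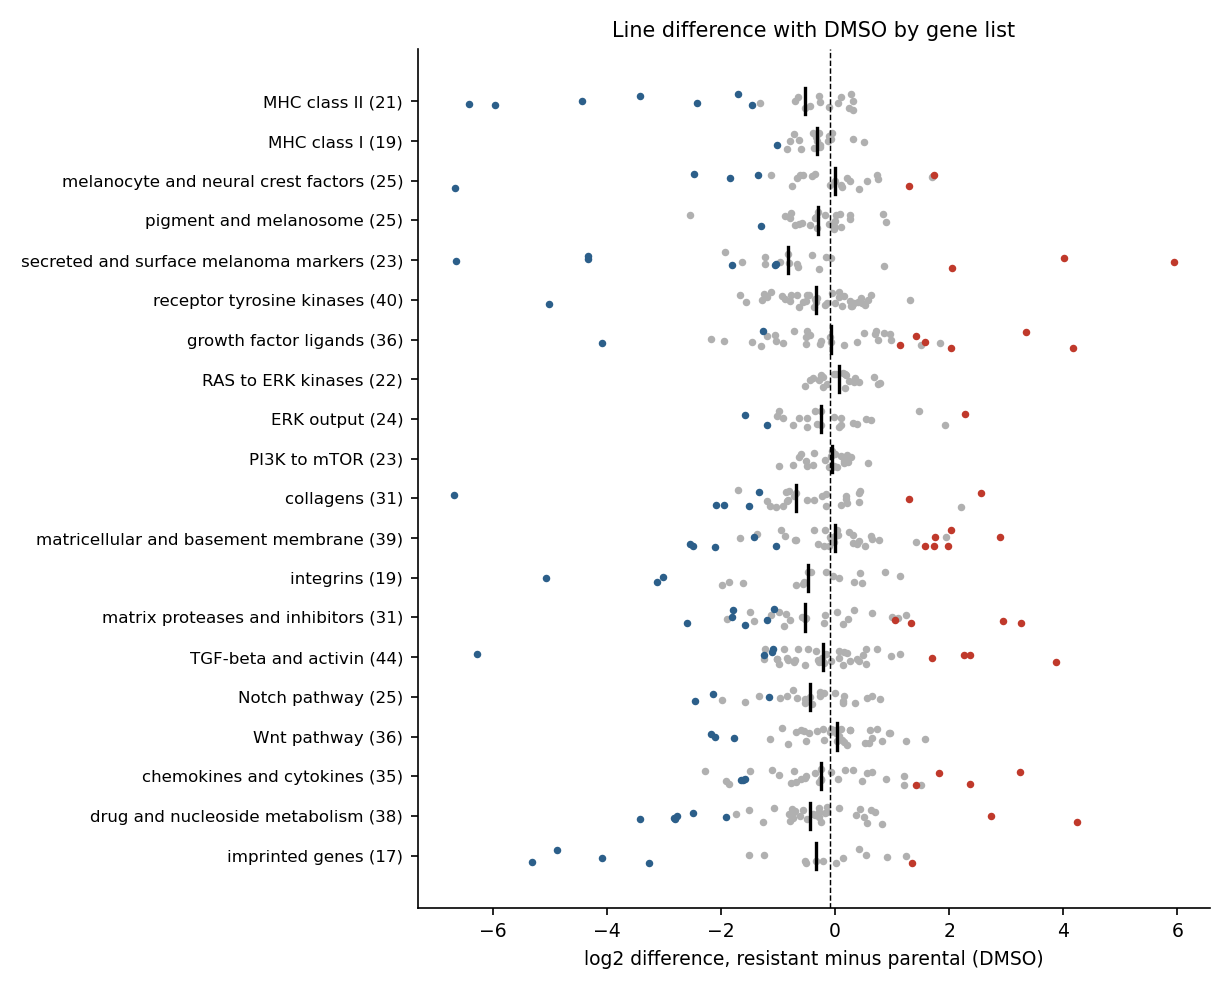
Log2 difference of resistant minus parental cells with DMSO (horizontal axis) for the measured members of 20 gene lists, with the number measured in brackets. Blue points were called lower, red points higher and grey points not called, thick bars are list medians, and the dashed line is the median of all genes, -0.10. MHC class II genes extend to -6.41 on the lower side, while all 22 RAS to ERK kinase genes lie between -0.53 and 0.78.

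Among growth factors and their receptors, most calls were on ligands. Of 40 measured receptor tyrosine kinases 1 was called (2.5%, near the 3.64% of all genes), ERBB3, which was lower. The receptor median was -0.33 (-0.06 with centring). AXL (5469 and 4491 against 4750.5, 4251 and 4412, 0.15 ± 0.16, adjusted p = 0.776), EGFR (0.26 ± 0.24, adjusted p = 0.721), MET (0.58 ± 0.29, adjusted p = 0.352), IGF1R (-0.46 ± 0.31) and FGFR1 (0.47 ± 0.22) were not called. PDGFRB, a receptor named in acquired resistance, read 5.06 and 2.31 against 5.38, 29.3 and 28.0 and was below the median of 34.88 in all 5 arrays. Of 36 measured ligands 6 were called higher and 2 lower, against 1.47% and 2.16% of all genes, with a median of -0.08 that centring turns to 0.19. KITLG, the ligand of the KIT receptor that melanocytes need, read 847 and 1259 in resistant and 68.5, 61.5 and 38.25 in parental cells (4.18 ± 0.37, adjusted p = 2.64e-10), while KIT itself was under the median in all 5 arrays. FGF18 read 171 and 128 against 20.8, 32.2 and 1.14 (3.35 ± 0.62). PROS1, a ligand of the TAM receptors, read 195 and 252 against 57.4, 50.35 and 49.95 (2.02 ± 0.35). TGFA, a ligand of EGFR, went the other way with 96.8 and 122 against 1953, 2310.4 and 1499 (-4.08 ± 0.32, adjusted p = 3.26e-11). HBEGF, another EGFR ligand, was higher with 1659.6 and 1435 against 477, 553 and 526 (1.57 ± 0.44), as was CSF1, the macrophage growth factor, with 231 and 195 against 90.6, 63.8 and 80.4 (1.42 ± 0.29). HBEGF lost its call on leaving out each array except parental replicate 2 in turn (adjusted p = 0.0612 to 0.185). FGF18 (log2 3.35, adjusted p = 0.0890) was not called with the 5 DMSO arrays alone. CSF1 (log2 0.80, adjusted p = 0.428) was not called with the mean of all probe sets. HBEGF was not called with the mean of all probe sets or by eBayes without trend (adjusted p = 0.0580 to 0.0828).

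Of 22 measured RAS to ERK kinase genes 0 were called with limma, which at 3.64% of all genes is near the background, and their differences ran from -0.53 to 0.78 around a median of 0.07. MAP2K1 and MAP2K2, which encode the MEK kinases that GSK212 inhibits, read 656 and 930.1 against 796, 1012 and 409 (0.18 ± 0.36) and 741 and 298 against 468, 505 and 783 (-0.28 ± 0.34). ARAF (-0.25 ± 0.29), HRAS (-0.21 ± 0.23), MAPK3 (-0.53 ± 0.28), NF1 (0.35 ± 0.72) and the scaffold SHOC2 (0.01 ± 0.25) were not called. The largest in size, RRAS2, read 568 and 595 against 399.7, 335 and 287 (0.78 ± 0.29, adjusted p = 0.134). Centring added 1 call, MRAS. Of 23 PI3K to mTOR genes 0 were called, again near the background.

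Among 24 genes whose RNA follows ERK activity, 1 was called higher and 2 lower, against 1.47% and 2.16% of all genes. The list median was -0.24, which centring turns to 0.02. DUSP5, a nuclear phosphatase of ERK, read 1672 and 1483 in resistant and 314, 356 and 301 in parental cells, a difference of 2.27 ± 0.28 (adjusted p = 4.00e-07). LIF, a cytokine of the interleukin 6 family, read 144 and 107 against 368, 329.9 and 434 (-1.57 ± 0.26), and the early response gene IER3 read 1132 and 897 against 2113, 2099 and 2763 (-1.19 ± 0.20). DUSP4 read 667 and 653 against 1224, 1233 and 1266 and passed the adjusted p but not the size (-0.91 ± 0.26, adjusted p = 0.0307). With the mean of all probe sets DUSP4 was called lower (log2 -1.15, adjusted p = 0.00594). DUSP6 (-0.63 ± 0.64, adjusted p = 0.756), SPRY2 (-0.99 ± 0.81, adjusted p = 0.666), SPRY4 (-0.34 ± 0.98), ETV4 (-0.49 ± 0.69), ETV5 (0.10 ± 0.64, with another probe set at -1.56), CCND1 (-0.24 ± 0.33), EPHA2 (0.08 ± 0.54) and FOSL1 (-0.25 ± 0.33) were not called. Their standard errors reach 0.98, so a modest difference in them would not have been called. MYC read 732 and 1227 against 266, 297 and 189, with every resistant array above every parental array, and was not called (1.93 ± 0.69, adjusted p = 0.112). It was called higher with the 5 DMSO arrays alone, with array weights and with a pseudocount at the 25th percentile (adjusted p = 0.00887 to 0.0482). IER3 (log2 -0.92) was not called with centring.

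Of 31 measured collagens 5 were called lower and 2 higher, against 2.16% and 1.47% of all genes. The collagen median was -0.69, which stayed below 0 with centring (-0.42) and quantile normalization (-0.45). COL9A3, a chain of a cartilage collagen, read 1.72 and 1.22 against 478, 406 and 427 and had the lowest difference of all genes (-6.69 ± 0.53, adjusted p = 4.24e-11). The fibrillar chain COL5A2 read 221.5 and 235 against 1054, 981 and 915 (-2.09 ± 0.25) and COL5A1 read 26.6 and 11.45 against 73.9, 60.8 and 98.9 (-1.95 ± 0.29). The basement membrane chain COL4A2 was also lower (-1.33 ± 0.24), and COL8A1 was higher (2.56 ± 0.72). COL1A1, the fifth gene called lower, read 17.3 and 11.25 against 34.5, 35.8 and 71.8 (-1.501 ± 0.42), but its 5 kept probe sets ran from -1.501 to 1.27 and their mean gave 0.055. COL4A2 (adjusted p = 0.05055) lost its call without resistant replicate 2. COL1A1 lost its call on leaving out resistant replicate 1, resistant replicate 2 and parental replicate 3 in turn (adjusted p = 0.0575 to 0.3705). COL8A1 lost its call on leaving out each array except parental replicate 1 in turn (adjusted p = 0.0841 to 0.226). COL5A1 (log2 -1.95, adjusted p = 0.0659) was not called with the 5 DMSO arrays alone. COL4A2 (log2 -0.94, adjusted p = 0.309) was not called with the mean of all probe sets. COL1A1 was not called after quantile normalization, with centring, with the mean of all probe sets or with the 5 DMSO arrays alone (adjusted p = 0.0738 to 0.987). COL8A1 was not called with no pseudocount, with the mean of all probe sets or with the 5 DMSO arrays alone (adjusted p = 0.0526 to 0.143).

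Matricellular and basement membrane genes went both ways, with 6 called higher and 5 lower of 39, against 1.47% and 2.16% of all genes. The list median was 0.00. Centring gives 5 higher and 3 lower and a median of 0.26. The cell-binding glycoprotein THBS1 read 1665 and 1833 in resistant and 8489, 8259 and 6191 in parental cells (-2.11 ± 0.24, adjusted p = 6.91e-08). Tenascin C (TNC) read 165 and 203 against 1185, 1080.5 and 887 (-2.49 ± 0.29) and the proteoglycan SPOCK1 111 and 76.7 against 582, 620.0 and 459 (-2.54 ± 0.38). Fibronectin (FN1) was lower too (-1.42 ± 0.27). In the other direction, the laminin chain LAMA1 read 449.8 and 393 against 71.9, 32.1 and 67.9 (2.89 ± 0.27, adjusted p = 8.75e-10), and CCN3, which melanocytes use to hold to the basement membrane, read 593 and 706 against 148, 169.5 and 150.5 (2.03 ± 0.25). CCN1 (1.58 ± 0.28) and LAMB3 (1.74 ± 0.31) were higher as well. Of 19 integrins 3 were called, all beta chains and all lower, against 2.16% of all genes called lower. The integrin median was -0.48 (-0.21 with centring). ITGB8, which activates latent TGF-beta, read 8.42 and 10.6 against 594, 572 and 196 (-5.06 ± 0.46), ITGB4 read 3.16 and 3.16 against 66.75, 31.9 and 54.4 (-3.12 ± 0.53) and ITGB7 5.34 and 1.66 against 39.35, 48.2 and 50.9 (-3.01 ± 0.69). The other 4 kept probe sets of ITGB4 gave -0.82 to 0.36. ITGB7 (adjusted p = 0.141) lost its call without resistant replicate 2. ITGB4 (log2 -0.93, adjusted p = 0.348) was not called with the mean of all probe sets.

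Proteases that cut matrix, with their inhibitors, had 4 members called higher and 6 lower of 31, against 1.47% and 2.16% of all genes. The list median was -0.53. With centring 4 were called higher and 3 lower (median -0.26), and without resistant replicate 1 there were 3 in each direction. Stromelysin MMP3 read 504 and 501 against 43.0, 64.9 and 44.8 (3.26 ± 0.32, adjusted p = 2.56e-09), ADAMTS1 read 907 and 1300.1 against 144, 174 and 106 (2.94 ± 0.32) and the urokinase receptor PLAUR was higher by 1.32 ± 0.19. Gelatinase MMP2 read 376 and 242 against 871, 1003 and 1313 (-1.79 ± 0.28) and the metalloprotease ADAM19 33.1 and 41.2 against 229, 247 and 239.8 (-2.60 ± 0.39). SERPINE2, an inhibitor of thrombin and plasminogen activators, read 5318 and 4367 against 15880.5, 15629.6 and 19214 (-1.80 ± 0.16, adjusted p = 3.06e-10). So MMP3 and MMP2 differed in opposite directions. SERPINE2 (log2 -1.01, adjusted p = 0.279) was not called with the mean of all probe sets.

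Components of the TGF-beta, activin and BMP pathways had 4 genes called higher and 4 lower of 44, against 1.47% and 2.16% of all genes. The list median was -0.22. Centring turns the median to 0.05 and leaves 4 higher and 1 lower, and the mean of all probe sets gives 3 higher and 1 lower. PMEPA1, an inhibitor of TGF-beta signalling that TGF-beta induces, read 23.55 and 17.1 in resistant and 1587, 1402 and 2515 in parental cells (-6.28 ± 0.66, adjusted p = 1.61e-08). The ligand BMP4 read 73.7 and 83.1 against 3.13, 2.60 and 2.55 (3.87 ± 0.55, adjusted p = 6.76e-06). Follistatin (FST), which traps activin, read 8393 and 6473 against 2222, 2062 and 2513 (1.71 ± 0.27), and the follistatin-like protein FSTL1 read 994 and 1039 against 209.6, 204 and 171 (2.37 ± 0.20, adjusted p = 1.27e-10). The BMP inhibitor SMAD6 (-1.24 ± 0.21) and the activin chain INHBA (-1.11 ± 0.15) were lower. SMAD6 was not called with centring or with the mean of all probe sets (log2 -0.64 to -0.97, adjusted p = 0.00647 to 0.535).

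In the Wnt pathway, with a median of 0.02, 3 of 36 genes were called, all lower, against 2.16% of all genes. These were the secreted inhibitor SFRP1, with 276 and 258 against 1389, 1377 and 948 (-2.18 ± 0.31), the ligand WNT5A, with 91.7 and 100.5 against 442, 442 and 379.6 (-2.10 ± 0.39, adjusted p = 0.000411), and the receptor FZD7 (-1.77 ± 0.39). In the Notch pathway 3 of 25 were called, again all lower and against the same 2.16%. They were the target HES1 (-2.46 ± 0.76), the glycosyltransferase LFNG (-2.14 ± 0.65) and the ligand JAG1 (-1.15 ± 0.28). The Notch median was -0.44 (-0.17 with centring), and 0 Notch genes were called by limma after centring and 1 after quantile normalization. The netrin receptor UNC5D read 4.67 and 18.8 against 109, 122 and 124 (-3.25 ± 0.58), and the neuronal surface proteins SLITRK6 (-5.21) and FLRT3 (-5.12) were lower too. JAG1 (adjusted p = 0.1155) lost its call without resistant replicate 1. FZD7 (adjusted p = 0.1365) lost its call without resistant replicate 2. HES1 lost its call on leaving out any 1 of the 5 arrays (adjusted p = 0.06535 to 0.355). LFNG lost its call on leaving out each array except resistant replicate 1 in turn (adjusted p = 0.0508 to 0.903). FZD7 (log2 -1.77, adjusted p = 0.0719) was not called with the 5 DMSO arrays alone. HES1 was not called after quantile normalization, with centring, with no pseudocount, with no filter or by eBayes without trend (adjusted p = 0.0576 to 0.162). JAG1 was not called with centring or with the mean of all probe sets (log2 -0.89 to -0.93, adjusted p = 0.0378 to 0.310). LFNG was not called after quantile normalization, with centring, with no filter, with the mean of all probe sets, by eBayes without trend, with the 5 DMSO arrays alone or with the replicate block (adjusted p = 0.0521 to 0.571).

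Of 35 chemokines and cytokines 4 were called higher and 3 lower, against 1.47% and 2.16% of all genes. The list median was -0.25, which centring turns to 0.02. IL18, an inflammasome cytokine, read 329 and 339 in resistant and 39.7, 33.55 and 26.5 in parental cells (3.24 ± 0.26, adjusted p = 3.56e-11). TNFAIP3, a ubiquitin-editing brake on NF-kappaB, read 599 and 547 against 143, 155 and 186 (1.82 ± 0.33). The neutrophil chemokine CXCL1 read 169 and 147 against 568, 554 and 405 (-1.66 ± 0.27), and IL1B was lower (-1.62 ± 0.37). IL6 was higher at low signals, with 41.7 and 56.1 against 30.3, 1.29 and 4.37 (2.37 ± 0.69). IL1B (adjusted p = 0.06205) lost its call without resistant replicate 1. IL6 lost its call on leaving out each array except parental replicate 1 in turn (adjusted p = 0.111 to 0.314). IL1B was not called after quantile normalization or with centring (adjusted p = 0.08375 to 0.125). IL6 was not called with the 5 DMSO arrays alone or with array weights (adjusted p = 0.110 to 0.230).

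Genes of drug and nucleoside metabolism had 2 members called higher and 6 lower of 38, against 1.47% and 2.16% of all genes. The list median was -0.44 (-0.17 with centring). Cytidine deaminase (CDA), which inactivates cytidine analogues, read 171 and 133 against 1.01, 15.8 and 4.77 (4.24 ± 0.63, adjusted p = 1.27e-05), and the drug efflux pump ABCB1 read 54.2 and 87.1 against 17.6, 2.15 and 9.63 (2.73 ± 0.63). ALDH1A3, which makes retinoic acid, read 325 and 359 against 3951, 3857 and 3272 (-3.42 ± 0.26, adjusted p = 1.24e-11). The aldo-keto reductases AKR1C1 (-2.78 ± 0.19), AKR1C2 (-2.82 ± 0.24) and AKR1C3 (-2.48 ± 0.26) were all lower, but they are near-identical copies whose probe sets may read one another's RNA, and 2 of 4 kept AKR1C1 probe sets gave 0.66 and 1.27. CYP1A1, the oxidase induced by aryl hydrocarbons, read 2.00 and 3.41 against 33.45, 47.6 and 28.1 (-2.81 ± 0.56). ABCB1 (adjusted p = 0.139) lost its call without resistant replicate 2. AKR1C1 (log2 -0.86, adjusted p = 0.301) was not called with the mean of all probe sets. ABCB1 (log2 2.73, adjusted p = 0.0811) was not called with the 5 DMSO arrays alone.

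The calls among cell cycle and BCL2 family genes were near the 3.64% of all genes. Of 43 cell cycle regulators 1 was called, the CDK inhibitor CDKN1C, which read 2.55 and 3.93 against 92.1, 96.1 and 109 (-4.08 ± 0.76, adjusted p = 0.000365). CDKN1A (-0.24 ± 0.18), CCND1 and CDKN2A (-0.29 ± 0.46) were not called, and the median was -0.24 (0.02 with centring). Of 19 BCL2 family genes, with a median of 0.27, 1 was called, the killer gene HRK. It was higher with 123 and 95.4 against 18.75, 18.7 and 39.3 (2.05 ± 0.42), and its other kept probe sets gave -0.98 to 2.63. BCL2L11 (0.12 ± 0.25), MCL1 (-0.22 ± 0.14) and BCL2 (0.27 ± 0.72) were not called. Of 35 glycolysis and hypoxia genes 2 were called higher and 3 lower, or 5.71% and 8.57% against 1.47% and 2.16% of all genes. On this list the vasodilator peptide ADM was higher with 2589 and 3087 against 557, 437 and 475 (2.53 ± 0.18, adjusted p = 4.18e-12). The kinase PFKFB4 (-1.90 ± 0.27) and the collagen prolyl hydroxylase P4HA2 (-1.43 ± 0.17) were lower. PFKFB4 (log2 -1.02, adjusted p = 0.194) was not called with the mean of all probe sets.

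Some large differences were in genes whose RNA is set by imprinting or is usually confined to the germ line. Of 17 measured imprinted genes 4 were called lower and 1 higher, GRB10 (1.35 ± 0.28, with other kept probe sets at -0.16 to 0.65), against 2.16% and 1.47% of all genes, with a median of -0.33 (-0.07 with centring). NDN (necdin), a growth suppressor expressed from the paternal copy, read 12.5 and 3.46 in resistant and 388, 442 and 338 in parental cells (-5.32 ± 0.77, adjusted p = 7.60e-06), and its neighbour MAGEL2 read 2.09 and 2.24 against 51.9, 43.5 and 39.2 (-3.25 ± 0.56). MEST read 2.63 and 0.920 against 138, 128 and 123 (-4.88 ± 0.78), and the maternally expressed CDKN1C is the other gene called lower. Both resistant signals were under the median of 34.88 for all 4. Of 20 cancer testis antigens PAGE1 (1379.9 and 1007 against 76.9, 97.6 and 138, 3.51 ± 0.30) and MAGEB2 (703 and 1155 against 73.5, 108 and 85.6, 3.32 ± 0.29) were higher and SSX1 was lower (-3.40 ± 0.81). Such X-linked families hold close copies, so their probe sets may read more than 1 member. SSX1 (adjusted p = 0.307) lost its call without resistant replicate 2. SSX1 (log2 -1.73, adjusted p = 0.176) was not called with the mean of all probe sets. GRB10 was not called with the mean of all probe sets or with the 5 DMSO arrays alone (adjusted p = 0.0670 to 0.562).

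Markers of other cell types were mostly near background in both lines. The 7 measured leukocyte markers summed to 113 to 120 in resistant and 145 to 236 in parental cells, and 1 was called, LYZ, which was lower (1.28 and 1.42 against 76.2, 51.8 and 60.8, -3.97 ± 0.93). PTPRC, which defines leukocytes, was under the median of 34.88 in all 5 arrays. CD96, a receptor known from T and natural killer cells, was measured with 13.4 and 17.97 in resistant against 1003, 1008 and 1012 in parental cells (-5.78 ± 0.31, adjusted p = 1.04e-14). The 9 fibroblast and endothelial markers summed to 75.6 to 126 in resistant and 153 to 252 in parental cells, with COL1A1 called lower. The 8 epithelial markers summed to 7655 to 10832 and 5592 to 8905. Among them the keratin KRT18 read 10031 and 7132 against 5819, 5254 and 8457 (0.41 ± 0.22) and was not called, while EPCAM and CDH1 were under the median in all 5 arrays. KRT8, the partner of KRT18, was higher (1.65 ± 0.21, adjusted p = 1.16e-06) and KRT14 was lower (4.79 and 24.4 against 129, 125 and 190.3, -3.36 ± 0.67). The part of such markers in the results was not tested. Of the remaining lists, read against 3.64% of all genes called, RGS genes had 2 called higher and 1 lower of 34, HOX genes 1 higher of 24 (HOXD13), cholesterol synthesis 1 higher of 16 (DHCR7), cadherins and EMT factors 1 higher of 18, neurotrophin and GDNF coreceptors 1 lower of 5 (NGFR), protocadherins 1 lower of 28, semaphorins and their partners 1 lower of 36, and metallothioneins 0 of 7. KRT14 (adjusted p = 0.0962) and LYZ (adjusted p = 0.0544) lost their calls without resistant replicate 1. LYZ (adjusted p = 0.0679) lost its call without resistant replicate 2. COL1A1 lost its call on leaving out resistant replicate 1, resistant replicate 2 and parental replicate 3 in turn (adjusted p = 0.0575 to 0.3705). DHCR7 lost its call on leaving out each array except parental replicate 3 in turn (adjusted p = 0.0527 to 0.350). HOXD13 lost its call on leaving out each array except parental replicate 2 in turn (adjusted p = 0.0565 to 0.303). LYZ (log2 -1.98, adjusted p = 0.561) was not called with no pseudocount. COL1A1 was not called after quantile normalization, with centring, with the mean of all probe sets or with the 5 DMSO arrays alone (adjusted p = 0.0738 to 0.987). DHCR7 was not called after quantile normalization, with a pseudocount at the 25th percentile, with the mean of all probe sets or with the 5 DMSO arrays alone (log2 0.78 to 1.02, adjusted p = 0.0267 to 0.0844). HOXD13 was not called with the mean of all probe sets or with the 5 DMSO arrays alone (adjusted p = 0.0575 to 0.153).

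The line difference was also measured in the drug-treated arrays. They share no array with the DMSO means but supply most of the error variance behind the DMSO calls, so the calls are not independent of them. Over the mean of the 6 treatments 915 genes were called higher (5.07%) and 1916 lower (10.6%). Of the 657 genes called with DMSO, 461 (70.2%) were called the same way there and 2 the other way. The same sign in each of the 6 treatments was seen for 541 of them (82.3%) and for 5710 of all genes (31.6%), and 233 were called the same way in each treatment while 91 were in none. Their median size was 1.71 with DMSO and 1.47 with drug, but they were chosen by their size with DMSO, which favours the larger value there. KISS1 differed by 5.89 ± 0.19 with drug, with resistant signals of 347 to 1701 with a median of 557 over 18 arrays and parental signals of 3.40 to 36.55 with a median of 6.61 over 15 arrays. SOX10 differed by -6.83 ± 0.22, with resistant signals of 1.96 to 21.0 with a median of 4.16 and parental signals of 654 to 1414 with a median of 1006. The lines did not overlap over all treated arrays for KISS1 or SOX10. Other genes whose treated difference was close to that with DMSO were MIA (-6.93), COL9A3 (-6.98), PMEPA1 (-6.41), ERBB3 (-5.10), NGFR (-4.17), L1CAM (-4.65), NDN (-5.13), PAGE1 (3.62), GDF15 (4.21) and FSTL1 (2.53). Treated arrays had actin ratios of 3.72 to 45.0, against 3.95 to 12.045 with DMSO. The treated arrays also differed between the lines. Their median signals were 29.0 to 52.4 in parental and 23.8 to 46.3 in resistant cells. The 3' to 5' ratios of GAPDH control signals were 1.13 to 5.27 and 1.03 to 3.47. The part of RNA quality and of scaling in the treated differences and counts was not tested.

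**Figure D4:**
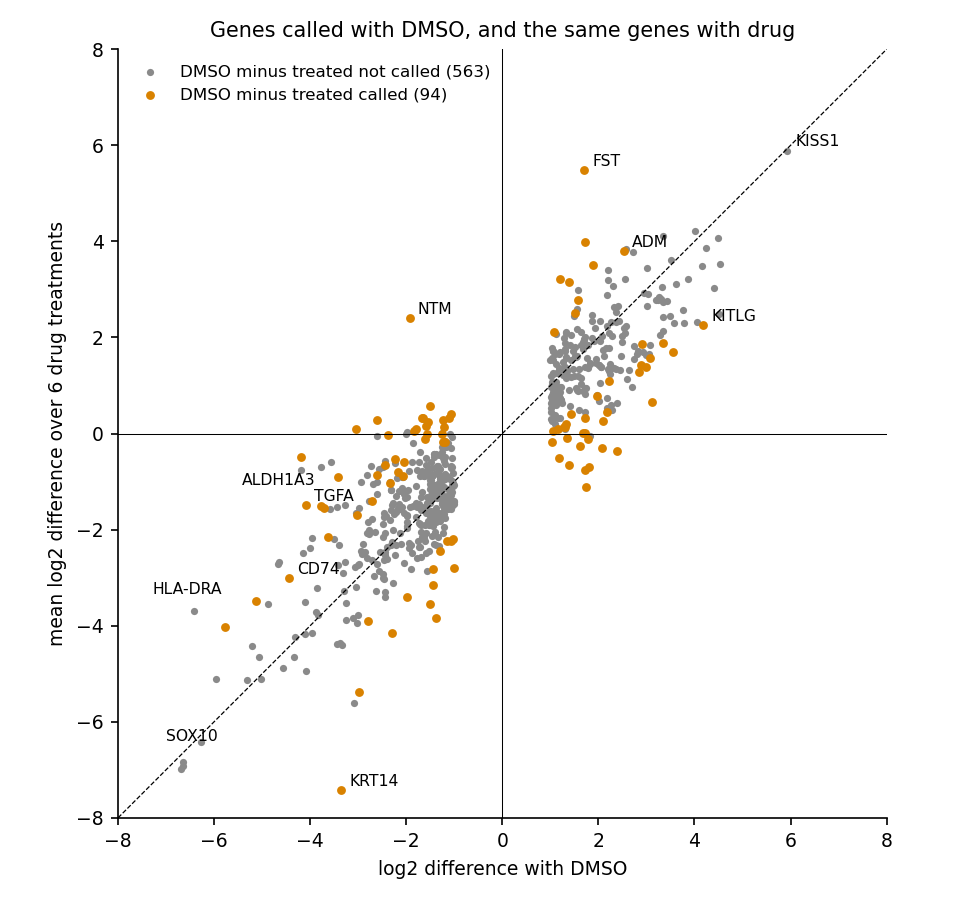
Mean log2 difference of resistant minus parental cells over the 6 drug treatments (vertical axis) against the difference with DMSO (horizontal axis) for the 657 genes called with DMSO, with the dashed line marking equal values. The 94 genes in orange also had a called difference between the 2 conditions, among them FST at 1.71 with DMSO and 5.49 with drug, and NTM at -1.93 and 2.40.

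For other genes the line difference with DMSO was not that with drug. The DMSO minus treated difference was called for 418 genes (2.31%), of which 94 were among the 657 and 324 were not called with DMSO. This count was 204 without resistant replicate 1 and 242 with centring. Of the 94, 70 were smaller in size with drug, a count favoured by choosing genes for a size of at least 1 with DMSO. The class II genes HLA-DRA and CD74 were in this direction, with treated differences of -3.69 ± 0.29 and -3.01 ± 0.12, although only that of CD74 was called for the change (-1.43 ± 0.32, adjusted p = 0.00555; for HLA-DRA -2.72 ± 0.81, adjusted p = 0.0509). TGFA differed by -4.08 with DMSO and -1.48 ± 0.12 with drug, and ALDH1A3 by -3.42 and -0.90 ± 0.10. TFAP2C, LIF and CXCL1, all lower with DMSO, differed by 0.06 ± 0.10, -0.02 ± 0.10 and 0.33 ± 0.10 with drug. FST went the other way, from 1.71 to 5.49 ± 0.10 (adjusted p = 8.72e-11 for the change), and so did ADM, from 2.53 to 3.79 ± 0.07. NTM, a neuronal adhesion protein, went from -1.93 to 2.40 ± 0.11, but its kept probe sets ran from -1.93 to 1.05 with DMSO. KRT14 went from -3.36 to -7.42 ± 0.26, and MGP, an inhibitor of calcification, from -0.18 to -7.30 ± 0.21. The probe set that stands for MGP was under 2.8 on all 5 DMSO arrays, while a second kept MGP probe set had means of 2.915 in resistant and 14.9 in parental cells (-1.51). SOX2 (-0.56 to -3.16 ± 0.11) and FOXD3 (-0.09 to -3.17 ± 0.27), 2 neural crest factors not called with DMSO, were called lower in resistant cells in the treated mean, and the change was called for both (adjusted p = 5.57e-07 and 0.0133). KRT14 (adjusted p = 0.0962) lost its call without resistant replicate 1. NTM (log2 -0.78, adjusted p = 0.488) and TFAP2C (log2 -1.53, adjusted p = 0.05885) were not called with the mean of all probe sets.

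The share of genes called differed between chromosomes. On chromosome 15, 41 of 574 measured genes were called lower and 0 higher (7.14% and 0.00%), against 2.16% and 1.47% of all genes. Its median difference was -0.48, and 82.2% of its genes were below 0, as were 10301 of all 18063 genes. With drug the median of chromosome 15 was -0.49, with 81.0% of genes below 0. The median of all genes was -0.26 with drug and -0.10 with DMSO, so chromosome 15 lay closer to all genes with drug. The genes called on chromosome 15 include THBS1, ALDH1A3, NDN, MAGEL2 and CYP1A1, described above. Chromosome 20 had 25 genes called lower and 3 higher of 522, a median of -0.41 and 79.1% of genes below 0, and among the 25 are COL9A3, PMEPA1 and FLRT3. Chromosome 7 had 27 lower and 7 higher of 857, with a median of -0.30, and holds ITGB8 and MEST. These counts depend on scaling. With centring chromosome 15 had 21 genes called lower and 1 higher, chromosome 20 had 14 and 3, and chromosome 7 had 14 and 12, so on chromosome 7 the imbalance was nearly gone. Without resistant replicate 2 the genes called lower were 22 on chromosome 15, 11 on chromosome 20 and 14 on chromosome 7. Medians of chromosomes 15, 20 and 7 remained below 0 after quantile normalization (-0.39, -0.33 and -0.22) and after centring (-0.21, -0.14 and -0.03), while the median of all genes went to 0.17. Chromosome 18, with LAMA1, had 14 genes called higher and 5 lower of 283 and a median of 0.15 (15 and 3 with centring, 7 and 5 with the mean of all probe sets). Chromosome 3 had 27 higher and 13 lower of 1022 and a median of 0.07 (40 and 9 with centring). DNA was not measured, and the copy number of these chromosomes was not tested.

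Along the chromosomes the shift was broad. In windows of 41 neighbouring measured genes, the lowest median on chromosome 15 was -0.80, from MESP1 to LINC00923, with 37 of 41 genes below 0, and the highest was -0.22, from NRG4 to ARNT2-AS3. The windows of chromosome 20 ran from -0.65 (SPEF1 to MKKS) to -0.19 (LINC00652 to ABHD12), and those of chromosome 7 from -0.61 (GLCCI1 to RAPGEF5) to -0.06 (AGK to CNTNAP2-AS1). So every window of chromosomes 15 and 20 had a median below that of all genes. The highest window medians of the genome were on chromosome 3, with 0.51 from WDR49 to MRPL47, and on chromosome 19, with 0.47 from YJEFN3 to ZNF681, where zinc finger genes are clustered. Chromosome 3 was uneven, since its lowest window, from SHISA5 to MST1R, had a median of -0.32.

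**Figure D5:**
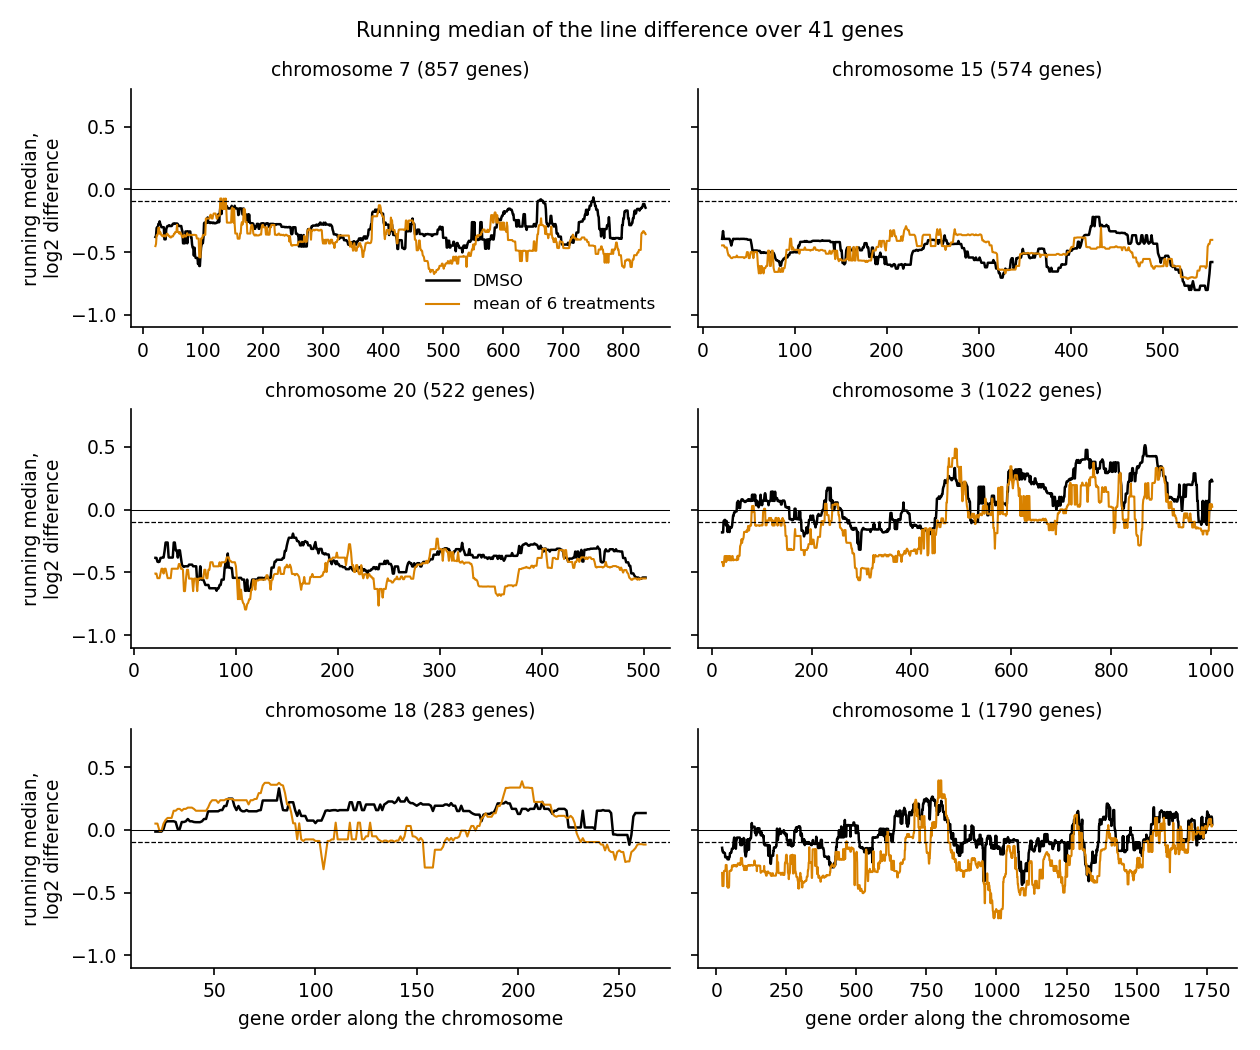
Running median over 41 neighbouring measured genes of the log2 difference of resistant minus parental cells (vertical axis) against gene order (horizontal axis, counted from the start of each chromosome) for 6 chromosomes, with DMSO (black) and as the mean of 6 drug treatments (orange). The dashed line is the DMSO median of all genes, -0.10, and the black lines of chromosomes 15 and 20 stay below it throughout while that of chromosome 3 rises to 0.51. The median of all genes with drug, -0.26, is not drawn.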

How the data were processed

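Signals of 54675 probe sets on 38 one-colour Affymetrix arrays were used. The authors deposited linear signal intensities from MAS5, which the submitters' processing notes name, without a version. Trimmed means of 149.95 to 149.96 show that all arrays had been scaled to 1 common level. Probe sets that name 1 gene (41097) were taken, with gene names from the platform's annotation, 41043 of them matched to RefSeq (GRCh38.p14). Probe sets with at least 2 arrays above 34.88 were kept (35888), and the one with the highest mean log2 signal stood for each of 18063 genes. The analysed scale was log2(signal + 2.8), where 2.8 is the 10th percentile of all signals.

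In limma 3.58.1 (R 4.3.3) 14 group means were estimated from all 38 arrays, leaving 24 residual degrees of freedom, with eBayes following the mean signal, and p was adjusted by Benjamini and Hochberg over all genes. A call needed both an adjusted p under 0.05 and a log2 size of at least 1. The members and the 37 gene lists were chosen with earlier results of these data known, and lists are given as counts and medians with no test. Named genes were eligible as the first 20 called in each direction, up to 6 called members of each list, all members of 4 lists and the 3 largest DMSO minus treated differences in each direction. Those printed, with further list members, are a selection made after values were seen. Simulated arrays with 200 of 18063 genes changed gave back 49% of those changed by 1.5 and 70% of those changed by 2.5 for the DMSO comparison, with 2 false calls. Their noise was normal, independent and of the same spread on all arrays for a given gene. Scaling shifts and unequal array quality were not simulated, so the false calls in the real arrays may be more. Other settings were quantile normalization, centring, pseudocounts, filters, the mean of probe sets, eBayes without trend, the 5 DMSO arrays alone, the replicate number as a block, array weights, the actin ratio as a covariate and leaving out each DMSO array. Tables were handled with pandas 2.3.3, numpy 2.4.6 and matplotlib 3.10.9 in Python 3.11.15 and with the data.table package (1.17.8). Some genes of the lists were not analysed here.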

Additional observations from a re-analysis of the deposited data

Results flagged for a closer look

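For 33 of the genes eligible to be named, the line difference with DMSO differed from the mean line difference over the 6 drug treatments, by the test of that difference in limma (adjusted p under 0.05 and a size of at least 1 on the log2 scale). Values are the DMSO difference minus the treated difference. Groups of 2 or 3 arrays were not tested for an array far from the others.

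Among lineage factors and surface proteins the values were 3.08 for FOXD3, 2.60 for SOX2, 1.78 for ID2, -1.89 for TFAP2C, -1.75 for CD96, -1.43 for CD74, -1.64 for FLRT3 and -4.33 for NTM. FOXD3, SOX2 and ID2 had no called line difference with DMSO and were called lower in resistant cells over the treatments. Among growth factors and cytokines they were 1.91 for KITLG, -2.60 for TGFA, -1.56 for LIF, -1.98 for CXCL1 and -1.26 for ADM. TGFA, LIF and CXCL1 were nearer between the lines with drug than with DMSO. Among genes of the ERK pathway and its output they were 1.32 for RRAS, -1.13 for DUSP4, -1.90 for FOSL1, -1.76 for MAFF and -1.46 for PHLDA1. FOSL1 (1.65) and MAFF (2.08) were called higher in resistant cells over the treatments and were not called with DMSO.

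Among genes of matrix and of the TGF-beta, Wnt and Notch pathways they were 1.47 for LAMA1, -1.74 for ADAM19, 7.12 for MGP, 5.12 for OLFML2A, -3.79 for FST, -1.06 for SMAD6, -1.38 for SFRP1 and 1.09 for JAG1. The probe sets used for MGP and OLFML2A were under the median of 34.88 on all 5 DMSO arrays, and both genes were called lower in resistant cells over the treatments. Among metabolic and other genes they were 1.85 for MAOA, -2.52 for ALDH1A3, -2.90 for PPARGC1A, 1.06 for ALDOC, 6.24 for SLC2A12, 4.06 for KRT14 and -3.71 for SH3PXD2A-AS1. RNA quality differed between DMSO and treated arrays, with actin ratios of 3.95 to 12.045 and 3.72 to 45.0, and its part in these values was not tested.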

How the results depend on the processing

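Of 125 named genes that were called, 74 kept their call in every one of 17 other settings in which they were measured. Of 79 not called, 6 were called under at least 1. A named gene removed by the filter at the 75th percentile was not tested there and counted as unchanged. The mean of all probe sets ended 30 calls, the 5 DMSO arrays alone 23 and centring 17, and COL1A1 turned from -1.501 to 0.055 with the mean of all probe sets. The count of called genes was 657, and 398 to 627 when 1 DMSO array was left out, with 181 to 253 higher and 217 to 390 lower. Without a resistant array that group rests on 1 array, assumed to vary like the other groups. Genes called lower numbered 234 with centring instead of 391, and the 5 DMSO arrays alone gave 465. For the line difference in treated cells 1849 genes were called with a filter at the 75th percentile, which tests fewer genes (9919), instead of 2831, and 2830 to 2831 when 1 DMSO array was left out. For DMSO minus treated 418 became 242 with centring, 274 with the mean of all probe sets, 1172 with array weights and 204 to 583 when 1 DMSO array was left out, and the cause was not tested. Deviations of same-numbered DMSO arrays of the 2 lines correlated at -0.08 and 0.10. The deviations of 2 resistant arrays mirror each other, so these values cannot decide whether the shared replicate numbers pair the arrays. With the replicate block 646 genes were called. Low signals carry no stated detection limit, since no detection calls were used, and the number of arrays limits the precision.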
